A study of Mus musculus with 44 samples.

Results

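The genes described here are the receptors of the epidermal growth factor (EGF) family and the ligands that bind them: the ligands Egf, Tgfa, Areg, Ereg, Hbegf and Btc, the receptors Egfr, Erbb2 and Erbb3, and the neuregulin Nrg1. These 10 genes were taken by name from 31484 gene names, after the deposited estimated counts of single transcripts had been summed per gene. All 10 were detected and all passed the filter on low counts that left 14901 genes for testing. The 44 libraries came from biopsies of the ventral gastric corpus mucosa of female mice of the BalbC strain, aged 13 months. WT/PEG (n = 11 libraries) came from wild type mice given the vehicle polyethylene glycol (PEG). WT/NTZ (n = 9 libraries) came from wild type mice given netazepide (NTZ, labelled YF), an antagonist of the gastrin receptor. KO/PEG (n = 13 libraries) and KO/NTZ (n = 11 libraries) came from mice lacking the beta subunit of the H+/K+ATPase, the acid pump of the parietal cell, given vehicle or NTZ. The knockout was present in every cell of the body and in KO/NTZ and KO/PEG alike. The study asked how gastrin acts on the corpus mucosa of such mice, and the comparisons below ask which members of the EGF family differed with genotype and with NTZ.

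EGF family ligands are made as membrane proteins and released by proteases such as ADAM17. They bind EGFR, which pairs with itself or with ERBB2, a receptor with no ligand of its own, or with ERBB3, a neuregulin receptor whose kinase is almost inactive. In the stomach, TGF-alpha, amphiregulin and HB-EGF are known from the surface and parietal cell compartments, where they act on growth, mucus production, acid secretion and repair.

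Libraries held 6065084 to 21945124 estimated counts in all. Atp4b, the targeted gene, was between 2890 and 5740 CPM (counts scaled to library size with TMM factors) in WT/PEG and between 2.28 and 17 CPM in KO/PEG, and KO/NTZ reached at most 40.6 CPM, so every library matched its genotype label. Other cell markers moved with genotype. The summed level of 3 chief cell genes had a median of 159000 CPM in WT/PEG and 9260 CPM in KO/PEG, 5 parietal genes (Atp4b among them) 12300 and 3900 CPM, and 2 mucous neck genes 1050 and 13500 CPM. The summed level of 5 genes of the squamous forestomach, a tissue next to the corpus, was highest in WT/NTZ, with a median of 629 CPM, beside 90.6 CPM in KO/NTZ, 21.4 CPM in KO/PEG and 1.25 CPM in WT/PEG. It was above 200 CPM in 6 WT/NTZ, 3 KO/NTZ, 2 WT/PEG and 1 KO/PEG library. The slope of a library's log2 CPM deviations on transcript length had a median of 0.26 per doubling of length in WT/PEG and -0.136 in KO/PEG, so that longer transcripts were relatively lower in KO libraries, and only 1 of 13 KO/PEG libraries and 0 of 11 KO/NTZ libraries reached the WT/PEG range. The share of counts from mitochondrial genes also differed, with a median of 9.57% in WT/PEG and 4.86% in KO/PEG. Genotype and this slope can hardly be told apart, and the genotype results of the members between KO/PEG and WT/PEG are given below with the slope as a covariate where that changed their call or direction. The animal numbers in the labels, whose meaning is not stated, were 100 or above for 11 of 11 WT/PEG, 7 of 13 KO/PEG, 4 of 9 WT/NTZ and 1 of 11 KO/NTZ libraries, so they also differed between the groups. In these bulk samples, fewer cells of a type and less RNA per cell cannot be told apart.

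Differences between KO/PEG and WT/PEG were tested for all 14901 genes with the quasi-likelihood test of edgeR and Benjamini-Hochberg adjustment, and 74.6% of these genes passed an adjusted p of 0.05. Of the 10 members 7 passed, 4 of them higher and 3 lower in KO/PEG, beside 37.5% higher and 37.2% lower over all genes. The ligands Areg and Hbegf, the neuregulin Nrg1 and the receptor Erbb2 were higher in KO/PEG, the ligands Egf and Btc and the receptor Egfr were lower, and Tgfa, Ereg and Erbb3 did not pass. With a term for animal numbers of 100 or above, and likewise among those animals alone, 9 members passed, with Tgfa and Erbb3 then lower in KO/PEG. With the length slope as a covariate 4 passed, beside 33.3% of all genes. Of these, Egf stayed lower and Hbegf higher, Btc turned from lower to higher, and Erbb3 passed as higher. The groups did not overlap at all for Egf and Hbegf, which held for 14.3% of all genes tested.

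**Figure D1:**
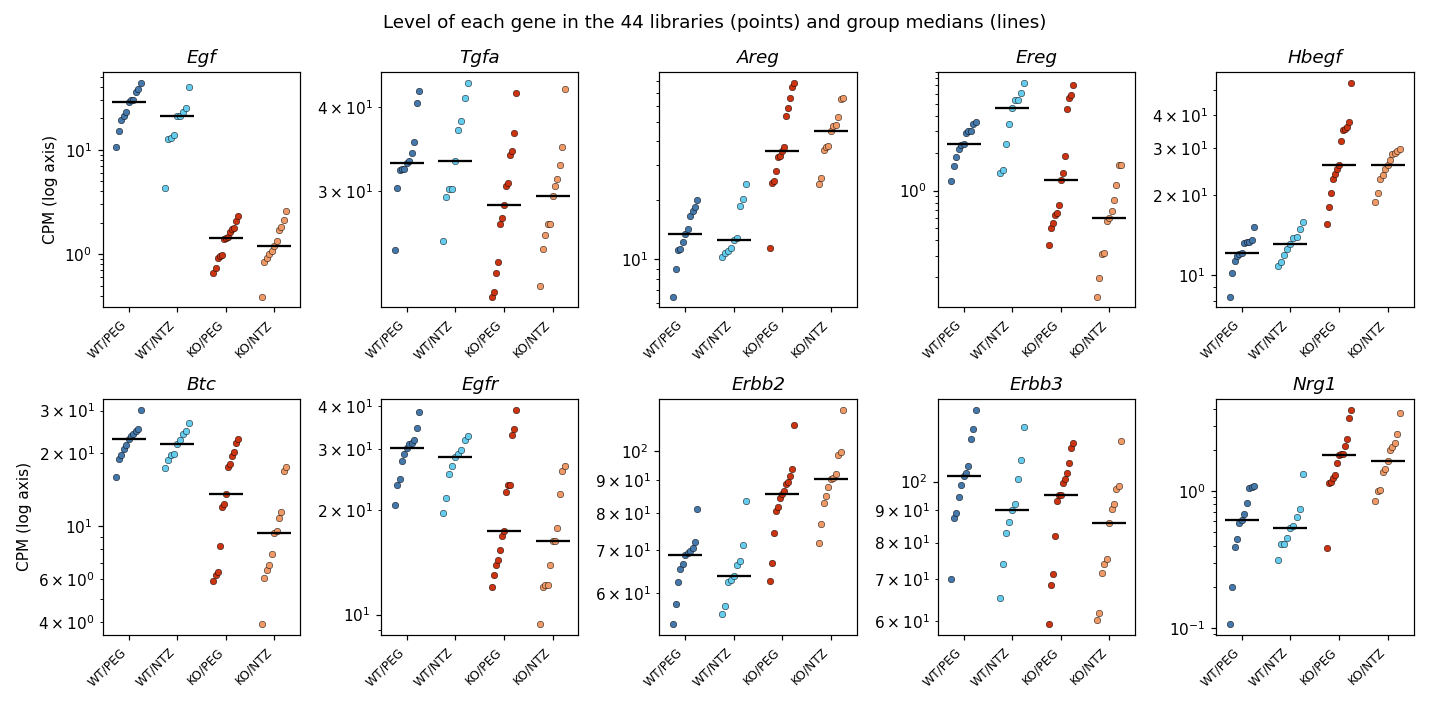
Level of each of the 10 genes in CPM on a log axis, 1 point per library in each of the 4 groups, with the group median as a line. Egf reached at most 2.58 CPM in the KO libraries and was at least 4.32 CPM in the WT libraries, while the 13 KO/PEG libraries fell into 4 with at least 4.53 CPM of Ereg and 9 with at most 1.89 CPM.

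Egf encodes epidermal growth factor itself, which binds only EGFR. Its level in WT/PEG was 10.6 CPM in the lowest library, 28.7 CPM at the median and 44.2 CPM in the highest, and in KO/PEG it was 0.658, 1.42 and 2.31 CPM. Every KO/PEG library thus lay below every WT/PEG library. The fitted difference was -4.26 on the log2 scale (SE 0.269), a level 19.2-fold lower, with an edgeR adjusted p of 5.49e-17. The 3 coding transcripts that could be tested separately were all lower, with log2 differences of -6.19 for Egf-201, -3.11 for Egf-202 and -3.46 for Egf-209 and adjusted p-values of 7.37e-08, 0.00273 and 0.00345 in the edgeR fit of 30782 transcripts, of which 53.5% passed. With the length slope as a covariate Egf was still lower in KO/PEG, by a log2 difference of -3.14 (adjusted p = 5.1e-06). The medians of the parietal and chief cell genes fell in the same libraries, and their part in the Egf result was not tested.

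Areg encodes amphiregulin, a ligand of EGFR that is readily induced in injured epithelium. It was between 6.48 and 20 CPM in WT/PEG with a median of 13.4 CPM, and between 11.4 and 78.8 CPM in KO/PEG with a median of 35.3 CPM. In KO/PEG 12 of 13 libraries were above the highest WT/PEG library, and the remaining library lay inside the WT/PEG range. The log2 difference was 1.65 (SE 0.233), a 3.13-fold higher level (edgeR adjusted p = 6.14e-08). With the length slope as a covariate the log2 difference was 0.852 and no longer passed (adjusted p = 0.0881).

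Hbegf encodes heparin-binding EGF-like growth factor, which binds EGFR and ERBB4. In WT/PEG its level was 8.28 CPM in the lowest library, 12.1 CPM at the median and 15.2 CPM in the highest, and in KO/PEG it was 15.5, 25.9 and 53.2 CPM. All 13 KO/PEG libraries were above all WT/PEG libraries, although the lowest was only just so. Hbegf differed by 1.27 on the log2 scale (SE 0.136), a 2.41-fold higher level (edgeR adjusted p = 1.23e-10). It was almost as large with the length slope as a covariate, at 1.18 (adjusted p = 0.000142), and ranged from 1.18 to 1.36 over the 13 alternatives to the processing.

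Btc encodes betacellulin, which binds EGFR and ERBB4. The WT/PEG libraries held between 16 and 30.2 CPM with a median of 22.8 CPM, and the KO/PEG libraries between 5.93 and 22.8 CPM with a median of 13.6 CPM. In KO/PEG 7 of 13 libraries were below all WT/PEG libraries and 0 of 13 were above the WT/PEG median. Btc differed by -0.653 on the log2 scale (SE 0.199, edgeR adjusted p = 0.00343). This direction turned with the length slope as a covariate, where Btc was higher in KO/PEG by 0.741 (adjusted p = 0.0317), so the direction of Btc rests on how transcript length is treated.

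The genes of these ligands lie close to each other in part. Ereg, Areg and Btc are on chromosome 5 of the GRCm38 build, Ereg from 91074622 to 91093646, Areg from 91139599 to 91148432 and Btc from 91357261 to 91402994. The gap is 45953 bases between Ereg and Areg and 208829 bases between Areg and Btc. Without a covariate Areg was higher, Btc was lower and Ereg did not pass in KO/PEG, whereas with the length slope as a covariate the log2 differences of Areg, Btc and Ereg were all above 0, at 0.852, 0.741 and 1.51. The 250 bases before the start site of Areg and Btc, and of Egf on chromosome 3, are shown 5′ to 3′ on the gene's own strand because Egf and Areg had the largest differences of the ligands without a covariate and Btc is a neighbour of Areg. They are RefSeq sequences of GRCm38.p6, with capitals for a match to TGACGTCA (the cAMP response element), TGANTCA (the AP-1 site), AAGGTCA (a nuclear receptor site), TATAAA (the TATA box) or GGGCGG (the GC box) on either strand.
Areg, chr5:91139349-91139598, plus strand: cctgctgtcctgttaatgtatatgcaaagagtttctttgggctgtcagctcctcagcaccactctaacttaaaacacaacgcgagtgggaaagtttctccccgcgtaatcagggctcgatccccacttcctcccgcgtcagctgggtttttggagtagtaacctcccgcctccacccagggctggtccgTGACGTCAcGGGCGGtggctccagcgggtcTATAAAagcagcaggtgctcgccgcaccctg
Btc, chr5:91402995-91403244, minus strand: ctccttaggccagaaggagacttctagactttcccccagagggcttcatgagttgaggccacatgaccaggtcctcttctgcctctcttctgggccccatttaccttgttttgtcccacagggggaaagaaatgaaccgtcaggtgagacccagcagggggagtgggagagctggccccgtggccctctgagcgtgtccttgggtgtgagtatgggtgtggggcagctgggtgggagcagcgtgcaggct
Egf, chr3:129755323-129755572, minus strand: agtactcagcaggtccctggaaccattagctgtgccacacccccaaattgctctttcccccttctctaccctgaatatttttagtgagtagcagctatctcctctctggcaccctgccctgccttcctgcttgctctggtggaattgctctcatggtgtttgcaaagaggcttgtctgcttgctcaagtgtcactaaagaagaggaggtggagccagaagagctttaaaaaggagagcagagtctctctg
The Areg window holds TGACGTCA from -61 to -54, GGGCGG from -52 to -47 and TATAAA from -31 to -26, counted from the start site. Of the 32851 windows of this length in the RefSeq table, 1.55% hold TGACGTCA, 32.7% GGGCGG and 12.4% TATAAA. The windows of Btc and Egf hold no match to the 5 motifs, of which TGANTCA is in 6.75% and AAGGTCA in 4.08% of all windows. The Areg window has 15 CpG, the Btc window 4 and the Egf window 0, against a median of 6 over all windows. Windows were also found for Tgfa, Egfr and Erbb2.

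Nrg1 encodes neuregulin 1, a ligand of ERBB3 and ERBB4 made largely by mesenchymal and nerve cells. Its level was low, between 0.107 and 1.08 CPM in WT/PEG with a median of 0.617 CPM and between 0.384 and 3.92 CPM in KO/PEG with a median of 1.82 CPM, where the library counts ran from 6 to 74. In KO/PEG 12 of 13 libraries exceeded every WT/PEG library. The log2 difference was 1.52 (SE 0.306, edgeR adjusted p = 3.01e-05). It was 0.949 and did not pass (adjusted p = 0.149) with the length slope as a covariate. The summed level of 4 genes of enteric nerve and glia had a median of 20.2 CPM in WT/PEG and 9.55 CPM in KO/PEG. That of 5 fibroblast genes was at 442 and 331 CPM, with overlapping ranges (324 to 571 and 193 to 539 CPM). Of these 5 genes 2 passed as lower (40%, beside 37.2% of all genes), and their median log2 difference was -0.0637. The part of these cells in the Nrg1 result was not tested. The counts cover 1 of the 18 annotated Nrg1 transcripts.

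Tgfa, encoding transforming growth factor alpha, was at a median of 33 CPM in WT/PEG and 28.6 CPM in KO/PEG and the ranges overlapped. The log2 difference was -0.207 (95% interval -0.419 to 0.00404, edgeR adjusted p = 0.0789). The call turned on single libraries, since Tgfa passed without the WT/PEG library of lowest length slope (adjusted p = 0.0437), without KO/PEG library 52 (0.0481) and without KO/PEG library 45 (0.0239). It also passed with the term for animal numbers (-0.321, adjusted p = 0.011) and among animals numbered 100 or above (-0.362, adjusted p = 0.00434), and with the length slope as a covariate it turned to 0.21 (adjusted p = 0.415). Its main transcript Tgfa-201, tested alone, differed by -0.264 (adjusted p = 0.0476). Ereg, encoding epiregulin, had a median of 2.35 CPM in WT/PEG and 1.22 CPM in KO/PEG, with a log2 difference of -0.059 whose 95% interval ran from -0.856 to 0.738 (adjusted p = 0.901). The highest 4 of the 13 KO/PEG libraries exceeded the WT/PEG range and the lowest 6 lay under it, so the KO/PEG libraries lay on both sides of the WT/PEG range. Ereg was at 1.51 with the length slope as a covariate (adjusted p = 0.0721).

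Among the receptors, Egfr, the receptor shared by the 6 ligands, was between 20.7 and 38.5 CPM in WT/PEG with a median of 30.2 CPM and between 12 and 39 CPM in KO/PEG with a median of 17.4 CPM. In KO/PEG 7 of 13 libraries were below all WT/PEG libraries and 1 was above them all. Egfr differed by -0.448 on the log2 scale (SE 0.171, edgeR adjusted p = 0.0175). It turned to 0.565 with the length slope as a covariate (adjusted p = 0.0918), and without the libraries high in squamous markers it was -0.359 and did not pass (adjusted p = 0.0893). The full-length transcript Egfr-201 (10208 bases) was lower by a log2 difference of -0.547 (adjusted p = 0.0172), while the short Egfr-202 (2943 bases), also annotated as coding, differed by -0.202 (adjusted p = 0.427). Single transcripts were not fitted with the length slope, so its part in this contrast was not tested.

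Erbb2 was between 53.7 and 81.1 CPM in WT/PEG with a median of 68.7 CPM, and between 62.7 and 110 CPM in KO/PEG with a median of 85.7 CPM. In KO/PEG 9 of 13 libraries were above all WT/PEG libraries. The log2 difference of 0.332 (SE 0.0786, edgeR adjusted p = 0.00025) was the smallest that passed among the members, and it was 0.196 with the length slope as a covariate (adjusted p = 0.303). The 2 main transcripts went opposite ways. The coding Erbb2-201 differed by 0.513 (adjusted p = 4.78e-06), whereas Erbb2-202, a processed transcript with no coding sequence, held 17.5% of the Erbb2 counts in WT/PEG and 1.8% in KO/PEG and differed by -3.00 (SE 0.988, adjusted p = 0.00995). Kallisto divides reads that these transcripts share by estimation, so their split is less certain than their sum. Erbb3, the receptor for neuregulins, had a median of 102 CPM in WT/PEG and 95.3 CPM in KO/PEG, with a log2 difference of -0.133 (95% interval -0.352 to 0.0859, adjusted p = 0.279). Its direction depended on the fit. Erbb3 was lower in KO/PEG with the term for animal numbers (-0.277, adjusted p = 0.0274) and among animals numbered 100 or above (-0.301, adjusted p = 0.0248), and higher with the length slope as a covariate (0.525, adjusted p = 0.0171).

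**Figure D2:**
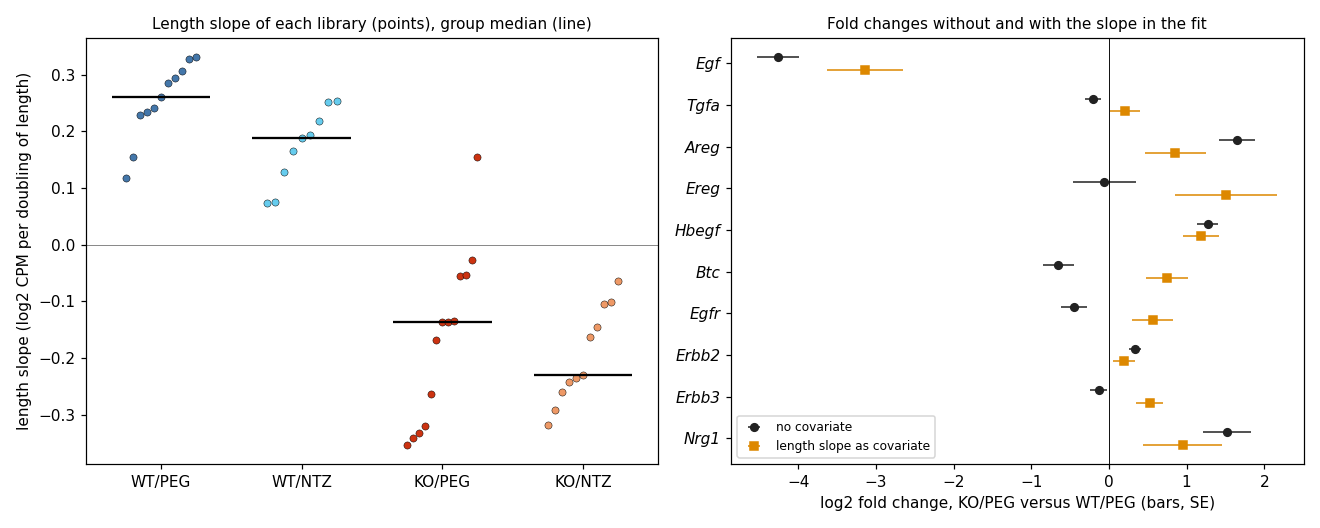
Left, slope of each library's log2 CPM deviations on log2 transcript length (points, with the group median as a line) in the 4 groups. Right, log2 fold change of the 10 genes between KO/PEG and WT/PEG with its SE, without a covariate (circles) and with the length slope as a covariate (squares). Egf stayed lower and Hbegf higher, while Btc, Egfr and Erbb3 moved from below 0 to above 0.

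To compare the members with each other, levels were also expressed per length as TPM, transcripts scaled to the same total in every library. Each transcript was divided by the same length in every library, so TPM still holds the difference in length slope between the genotypes. The summed TPM of the 6 EGFR ligands was between 31.6 and 62.8 in WT/PEG with a median of 44.7, and between 33.6 and 130 in KO/PEG with a median of 72. The ranges overlapped, but the make-up of the sum was different. Areg was a median of 27.9% of the ligand TPM in WT/PEG (17.2% to 35.6%) and 56.3% in KO/PEG (35.9% to 74.2%), with no overlap. Egf was 19.2% (7.41% to 30.3%) and 1.04% (0.273% to 2.35%), again with no overlap. Hbegf had a median share of 12.7% and 19.6% and its ranges just failed to overlap, while Btc was 20.9% and 8.75% and Tgfa 18.5% and 11.6%. Areg had the highest TPM of the 6 ligands in 8 of 11 WT/PEG libraries, where Egf led in 2 and Btc in 1, and in all 13 KO/PEG and all 11 KO/NTZ libraries. These shares describe the libraries, were not adjusted for the length slope and were not tested.

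**Figure D3:**
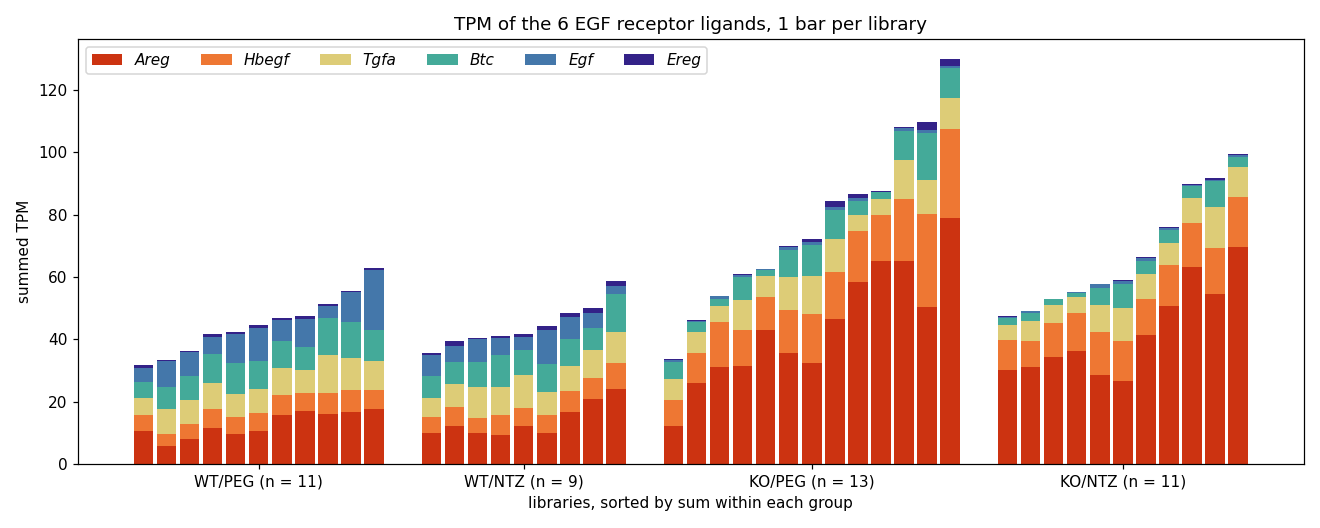
Summed TPM of the 6 EGFR ligands, 1 stacked bar per library, sorted by the sum within each group. The part of Areg was at a median of 63.6% in KO/NTZ, 56.3% in KO/PEG, 29% in WT/NTZ and 27.9% in WT/PEG, and that of Egf at 0.797%, 1.04%, 13.3% and 19.2%. The shares are not adjusted for the length slope.

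Over all 10 members the order of median TPM in WT/PEG was Erbb3 (19.1), Erbb2 (14.8), Areg (11.4), Btc (9.1), Egf (8.35), Tgfa (7.94), Hbegf (5.82), Egfr (4.65), Ereg (0.693) and Nrg1 (0.287). Neighbours in this order overlapped in their ranges with the exception of Egfr and Ereg. In KO/PEG the order was Areg (42.9), Erbb2 (22.8), Erbb3 (21.3), Hbegf (14.9), Tgfa (9.65), Btc (7.2), Egfr (4.44), Nrg1 (0.952), Egf (0.738) and Ereg (0.396), and the only neighbours whose ranges did not overlap were Egfr and Nrg1. Areg was above Erbb2 in 12 of 13 KO/PEG libraries. Egf was thus in place 5 of 10 in WT/PEG and in place 9 of 10 in KO/PEG. These orders were not adjusted for the length slope either.

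The genes whose pattern over the 44 libraries was most like that of a member were found by the mean absolute difference of centred log2 CPM. Only members with an absolute log2 difference of at least 1 between KO/PEG and WT/PEG were used. The distance was taken over these same libraries, so it favours genes with a like genotype difference. For Egf these were Kcnj16 (0.445), Spock3 (0.48) and Hrh2 (0.529), against a median of 1.93 over all genes. Their log2 differences between KO/PEG and WT/PEG were -3.68, -3.75 and -3.11. Hrh2 encodes the histamine H2 receptor of the parietal cell. For Areg they were Epha2 (0.313), Ier3 (0.331) and Maff (0.338), against 0.91, and for Hbegf Epha2 (0.171), Chic2 (0.221) and Spint1 (0.228), against 0.671. Epha2, a receptor tyrosine kinase for ephrins, headed both lists. For Nrg1 they were Capn5 (0.435), Msh5 (0.447) and Col6a4 (0.449), against 0.852. A shared cell type or shared regulation was not tested.

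The effect of the gastrin receptor antagonist in KO mice was taken from KO/NTZ against KO/PEG, a comparison that shares the KO/PEG libraries with the one above. Here 5.56% of all genes passed (2.6% of all genes were lower in KO/NTZ), and of the 10 members 1 passed, Ereg, which was lower. Its levels in KO/PEG were 0.367 CPM in the lowest library, 1.22 CPM at the median and 7.07 CPM in the highest, and in KO/NTZ they were 0.14, 0.603 and 1.61 CPM, which came from estimated counts of 1 to 34 per library. The groups overlapped, and what set them apart was 4 KO/PEG libraries with 4.53, 5.60, 5.84 and 7.07 CPM. The log2 difference was -1.62 (SE 0.439), a level 3.07-fold lower, with an edgeR adjusted p of 0.0205. Without the highest of these it was -1.35 and did not pass (adjusted p = 0.0604). It did not pass either with limma-trend (adjusted p = 0.0656), with only these 2 groups in the fit (0.111), with a term for animal numbers of 100 or above (0.069) or among animals numbered below 100 (0.19).

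The high Areg, Hbegf and Nrg1 levels of KO mice were not seen to differ with NTZ. Areg was at a median of 35.3 CPM in KO/PEG and 44.9 CPM in KO/NTZ, with a log2 difference of 0.0398 (95% interval -0.393 to 0.473). Hbegf was at 25.9 and 26 CPM, with -0.203 (-0.46 to 0.0533), and Nrg1 at 1.82 and 1.65 CPM, with -0.0519 (-0.607 to 0.504). The libraries of the 2 groups overlapped for each of these genes. Egf was at 1.42 and 1.21 CPM, with 0.0563 (-0.502 to 0.615). Btc was at 13.6 and 9.36 CPM, and its log2 difference of -0.539 (SE 0.204) had an adjusted p of 0.101. Btc passed when a single library was left out, the KO/PEG library of lowest length slope (adjusted p = 0.0404), KO/PEG 53 (0.0401), KO/NTZ 27 (0.0367) or KO/NTZ 25 (0.0358). Of the receptors, Egfr differed by -0.344 (95% interval -0.683 to -0.00445, adjusted p = 0.206), Erbb2 by 0.0973 (-0.0558 to 0.25) and Erbb3 by -0.142 (-0.362 to 0.0781), and Tgfa differed by 0.0285 (-0.183 to 0.24). The summed enterochromaffin-like cell genes had a median of 1840 CPM in KO/PEG and 735 CPM in KO/NTZ.

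**Figure D4:**
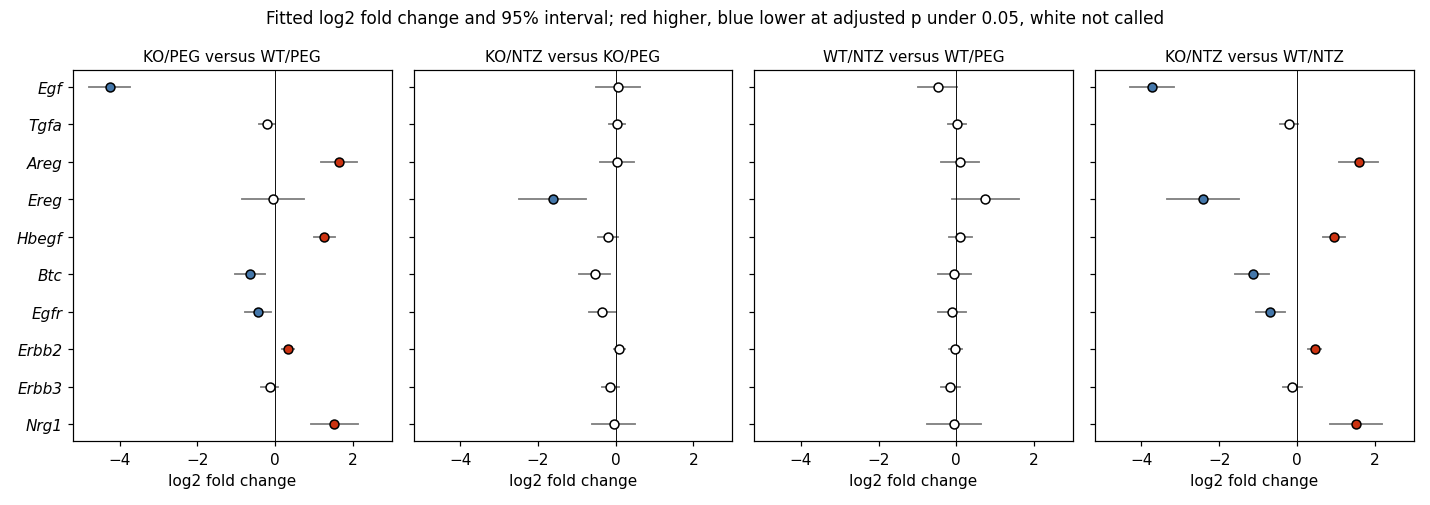
Log2 fold change of the 10 genes with its 95% interval in 4 comparisons, red for higher and blue for lower at an adjusted p under 0.05 and white for not passed. Of the members 7 passed between KO/PEG and WT/PEG, 1 between KO/NTZ and KO/PEG, 0 between WT/NTZ and WT/PEG and 8 between KO/NTZ and WT/NTZ.

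In WT mice few genes differed with NTZ, and 1.03% passed between WT/NTZ and WT/PEG. Fewer still passed with the squamous sum as a covariate or without the libraries high in squamous markers. The squamous sum had a median of 629 CPM in WT/NTZ and 1.25 CPM in WT/PEG, and its part in these differences was not tested. None of the 10 members passed in the edgeR fit, in DESeq2 or in limma-trend, and 0 of them had an unadjusted p under 0.05. The log2 differences were 0.0204 for Tgfa, 0.0957 for Areg, 0.103 for Hbegf, -0.0513 for Btc, -0.107 for Egfr, -0.0313 for Erbb2 and -0.157 for Erbb3. Nrg1 differed by -0.0664 with a wide 95% interval of -0.761 to 0.628. Egf was at 28.7 CPM in WT/PEG and 20.9 CPM in WT/NTZ, with -0.478 (-0.98 to 0.0248). Ereg was at 2.35 and 4.62 CPM, with 0.747 (-0.117 to 1.61, adjusted p = 0.811). The 5 WT/NTZ libraries with more Ereg than any WT/PEG library, at 4.62 to 7.39 CPM, had summed squamous marker levels of 629 to 3370 CPM, and the other 4, at 1.39 to 3.43 CPM, had 0.465 to 258 CPM. Without the libraries above 200 CPM in squamous markers the Ereg difference was -0.463. In KO mice the split was another. The 4 KO/PEG libraries with more Ereg than any WT/PEG library had squamous sums of 6.95 to 54.1 CPM, and the other 9 had 1.47 to 519 CPM. The 11 KO/NTZ libraries, which were not above, had 20.5 to 587 CPM. The part of squamous tissue in the Ereg values was not tested.

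Between KO/NTZ and WT/NTZ 72.4% of all genes and 8 of the 10 members passed. The 4 members Areg, Hbegf, Erbb2 and Nrg1 were higher in KO/NTZ (35.6% of all genes were), with log2 differences of 1.59 (SE 0.256), 0.96 (SE 0.148), 0.461 (SE 0.0866) and 1.53 (SE 0.342), and the 4 members Egf, Ereg, Btc and Egfr were lower (36.8% of all genes were), with -3.73 (SE 0.292), -2.42 (SE 0.469), -1.14 (SE 0.222) and -0.685 (SE 0.189). The edgeR adjusted p-values were between 7.05e-14 for Egf and 0.00141 for Egfr. Tgfa differed by -0.199 (adjusted p = 0.128) and Erbb3 by -0.118 (0.387), and Tgfa passed without KO/NTZ library 27 (0.0391) and with the term for animal numbers (-0.274, adjusted p = 0.0355). The 2 groups did not overlap for Egf, Areg and Hbegf, against 26.8% of all genes. With the length slope as a covariate 3 members passed, Egf lower and Hbegf and Erbb3 higher, beside 21.2% of all genes. Btc and Egfr turned to 0.0854 and 0.173 without passing. Areg, Ereg, Erbb2 and Nrg1 kept their direction in that fit and did not pass. Ereg had a median of 4.62 CPM in WT/NTZ and 0.603 CPM in KO/NTZ, and the WT/NTZ range began above 9 of 11 KO/NTZ libraries. Without the libraries high in squamous markers, which left 3 WT/NTZ libraries, the Ereg difference was -1.32 and did not pass (adjusted p = 0.118).

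Whether NTZ acted unlike in KO mice and in WT mice was tested as an interaction, which 0.96% of all genes passed. Of the 10 members Ereg passed, with a log2 difference of -2.37 (SE 0.62, edgeR adjusted p = 0.0459). It lost its call in 8 of 11 alternatives, with adjusted p-values between 0.00869 and 0.883, and in 28 of 44 fits that left out a single library, where its value ran from -2.56 to -2.1. The values of the other members were 0.534 for Egf, -0.488 for Btc, -0.306 for Hbegf, -0.237 for Egfr and 0.129 for Erbb2, and those nearest 0 were 0.0081 for Tgfa, -0.0559 for Areg, 0.0149 for Erbb3 and 0.0145 for Nrg1. Btc passed with the length slope as a covariate, at -0.656 (adjusted p = 0.0492).

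The other genes of the pathway were taken from a list of 58 genes in 5 groups, of which 53 were tested. Between KO/PEG and WT/PEG 17 were higher and 26 were lower, together 81.1% of those tested beside 74.6% of all genes, and the median log2 difference of the list was -0.237 beside -0.00279 over all genes. With the length slope as a covariate 16 passed, 12 higher and 4 lower, together 30.2% of those tested beside 33.3% of all genes, so the balance of directions turned round. The values of single pathway genes below are without a covariate unless stated.

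Of the other family members Nrg4, a ligand of ERBB4, was the only gene tested, since Erbb4, Epgn, Nrg2 and Nrg3 had counts too low. Nrg4 had a median of 0.56 CPM in WT/PEG and 2.31 CPM in KO/PEG, with a log2 difference of 2.00 (SE 0.443, edgeR adjusted p = 0.000109). Of 6 genes of shedding and trafficking 2 were higher, Rhbdf2 by 0.972 (SE 0.127) and Rhbdf1 by 0.66 (SE 0.133), which encode the inactive rhomboid proteins that carry ADAM17 to the cell surface. The proteases Adam10, Adam17 and Adam9 were lower, with log2 differences of -0.656, -0.401 and -0.308, and Rhbdl2 did not pass. With the length slope as a covariate Nrg4 was at 0.0493 (adjusted p = 0.966) and Rhbdf2 at 0.166 (adjusted p = 0.503), while Adam10, Adam17 and Adam9 turned to higher, at 1.25, 0.367 and 0.645, and passed. In that fit Rhbdf1 was still higher, at 0.719 (adjusted p = 0.0145), and Rhbdl2 passed as higher, at 0.84 (adjusted p = 0.0416).

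Of 15 inhibitors and feedback genes 9 were lower and 1, Errfi1, was higher, together 66.7% beside 74.6% of all genes. The largest differences were those of Cbl, a ubiquitin ligase that marks activated EGFR for degradation, with -1.96 (SE 0.269, edgeR adjusted p = 3.43e-08), and of Dusp6, a phosphatase of ERK, with -1.07 (SE 0.125, adjusted p = 9.61e-10). Under the fit with the length slope Cbl was at 0.12 (adjusted p = 0.798) and Dusp6 still lower, at -0.615 (adjusted p = 0.0215). Dusp6 was the only gene of this group that passed as lower in that fit. Errfi1, Spred1, Spred2, Cblb and Dusp4 passed as higher, at 0.753, 0.696, 0.492, 0.633 and 0.949. Cbl was between 2.89 and 10.7 CPM in WT/PEG and between 0.329 and 4.93 CPM in KO/PEG. The median transcript length was 4901 bases for the 9 that were lower, and 3883.5 bases for all genes that were lower and 1732 bases for all that were higher.

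Of 22 genes of the signal relay 13 were lower, 8 were higher and 1 did not pass, so that 95.5% passed beside 74.6% of all genes. Sos2, an exchange factor that loads RAS, was lower by -1.3 (SE 0.117, edgeR adjusted p = 1.54e-12) and Map2k2, a kinase of ERK, higher by 1.1 (SE 0.17, adjusted p = 3.52e-07). In the fit with that slope Sos2 was still lower, at -0.559 (adjusted p = 0.00726), and Map2k2 turned to lower, at -0.574 (adjusted p = 0.000935). Hras passed as lower there, at -1 (adjusted p = 3.47e-06), and Pik3r1 as higher, at 0.534 (adjusted p = 0.0287). No other gene of the signal relay passed in that fit, which 33.3% of all genes passed. Close relatives went opposite ways without a covariate, as with Map2k2 and Map2k1 (-0.407), and with Araf (0.442) and Braf (-0.919). With the slope Map2k1 was at 0.463, Araf at 0.171 and Braf at 0.172, and these 3 did not pass. Here too the lower genes were longer, with a median of 5599 bases against 2345.5 bases for the higher ones. Of 9 growth factor induced genes 5 were higher, Ier3 (1.78), Fosl1 (1.63), Etv4 (1.59), Phlda1 (0.595) and Myc (0.516), and Etv5 was lower (-0.465), while Fos, Egr1 and Ccnd1 did not pass, so that 66.7% passed beside 74.6% of all genes. In the fit with the length slope Ier3 was higher by 0.847 (adjusted p = 0.00604) and the other named genes of this group did not pass. Ier3, an early response gene, was between 8.69 and 14.8 CPM in WT/PEG and between 21.5 and 75.3 CPM in KO/PEG, with no overlap.

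**Figure D5:**
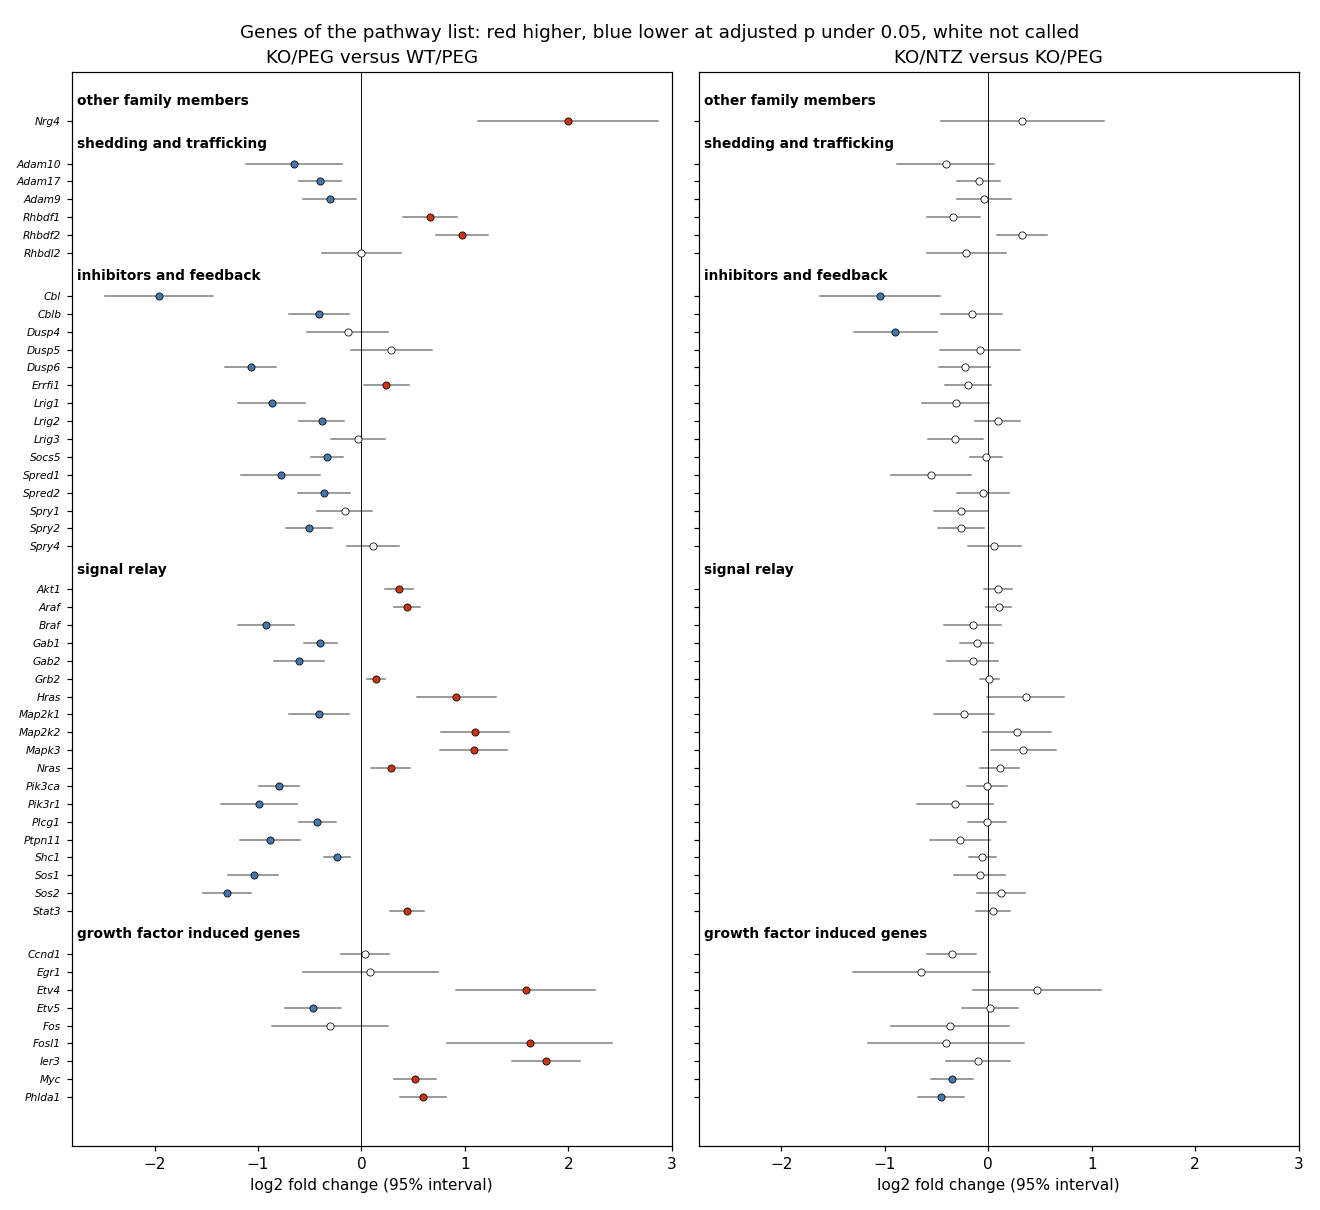
Log2 fold change with its 95% interval for tested genes of the pathway list, by group of genes and without a few that are not reported here, between KO/PEG and WT/PEG (left) and between KO/NTZ and KO/PEG (right), red for higher and blue for lower at an adjusted p under 0.05. Of all 53 tested genes of the list 17 were higher and 26 lower in the comparison on the left, and 4 were lower and 0 higher in that on the right.

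Between KO/NTZ and KO/PEG 4 of the 53 pathway genes passed, 7.55% beside 5.56% of all genes, and all 4 were lower in KO/NTZ. Dusp4, another ERK phosphatase, was at a median of 3.31 CPM in KO/PEG and 2.08 CPM in KO/NTZ, with a log2 difference of -0.899 (SE 0.207, edgeR adjusted p = 0.00556). Cbl was at 1.8 and 0.779 CPM, with -1.05 (SE 0.295, adjusted p = 0.0264). Phlda1 was at 75 and 58.1 CPM, with -0.456 (SE 0.114, adjusted p = 0.0109), and Myc at 28.8 and 22.7 CPM, with -0.352 (SE 0.102, adjusted p = 0.0308). Phlda1 and Myc were thus higher in KO/PEG than in WT/PEG and lower again in KO/NTZ, although these comparisons share the KO/PEG libraries. All 4 were still lower and passed with the length slope as a covariate, and none of the 4 passed with only the 2 groups in the fit. With that slope 7 pathway genes passed, 5 lower and 2 higher, together 13.2% beside 11.1% of all genes. The added genes were Spred1, lower by -0.409 (adjusted p = 0.0257), and Hras and Map2k2, higher by 0.282 (adjusted p = 0.0214) and 0.207 (adjusted p = 0.0484). Between KO/PEG and WT/PEG, however, Phlda1 (0.387, adjusted p = 0.137) and Myc (0.441, adjusted p = 0.0594) did not pass with that slope. With the squamous sum as a covariate 2 pathway genes passed between KO/NTZ and KO/PEG, beside 566 of all genes. Without the libraries high in squamous markers 1 passed, beside 490 of all genes. Of the pathway genes 0 passed between WT/NTZ and WT/PEG in edgeR, DESeq2 or limma-trend (1 had an unadjusted p under 0.05). Between KO/NTZ and WT/NTZ 43 passed (27 lower, 16 higher), which was 81.1% beside 72.4% of all genes. With the length slope as a covariate the share in that comparison was 17%, beside 21.2% of all genes. In the interaction 0 passed by the same tools (2 unadjusted). With the length slope as a covariate 7.55% passed the interaction, beside 9.64% of all genes.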

How the data were processed

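The authors made libraries with the TruSeq Stranded mRNA kit, sequenced single reads of 75 cycles and quantified GRCm38 transcripts with kallisto 0.42.4. The deposited values are estimated counts of 94080 transcripts in 44 libraries, not normalized. Here they were rounded, and 92372 transcripts were paired with genes in the GENCODE vM21 annotation and summed per gene name. The other 1708 held 0.329% to 1.3% of a library's counts. Groups were taken from the labels. The study describes fewer KO/PEG mice than the 13 KO/PEG libraries, and a single animal number names 2 WT/PEG libraries. Nothing says that these were separate animals, so p-values measure the spread between libraries.

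Genes were filtered with filterByExpr (minimum count 10, minimum total 15), scaled by TMM and fitted in edgeR 4.0.16 (R 4.3.3) with all 44 libraries and a mean per group. Benjamini-Hochberg adjustment of the quasi-likelihood p-values covered the 14901 genes, with a threshold of 0.05. Single transcripts were fitted the same way and only without a covariate. The study used Sleuth, which was not used here. Estimated counts were divided by transcript length in kb and scaled to the same total per library for TPM. The slope on length was fitted per library across genes. The procedure was tested on simulated data. Alternatives were another scaling, filters, DESeq2 1.42.0, limma-trend (limma 3.58.1), other sets of libraries and covariates. Those for length, for squamous markers and for single libraries were added after the data were seen.

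The genes named were the 10 members, the 2 pathway genes with the largest difference in each group of the list, all pathway genes that passed between KO/NTZ and KO/PEG, and for members with an absolute log2 difference of at least 1 the 3 genes most like them. Further pathway genes and transcripts were named after their values were seen, and a few pathway genes are counted but not reported here by name. Members and lists were chosen with earlier results of these data known. The lowest signal of a library was taken as 3 counts, which covers counting error only. Depth ranged from 6065084 to 21945124 estimated counts. Plots used matplotlib 3.10.9 (Python 3.11.15).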

Additional observations from a re-analysis of the deposited data

Results flagged for a closer look

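In 1 WT/NTZ library Nrg1 was at 1.34 CPM, far from the other 8 libraries, of which the highest was at 0.737 CPM. The gap was 0.585 of the range of the group. Only WT/NTZ had a group size at which this was tested, for all 10 members, and chance alone would single out about 1 in 20 of such values. The same library had a summed squamous marker level of 629 CPM, and its part in the Nrg1 value was not tested.

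The effect of NTZ on Ereg differed between the genotypes by -2.37 on the log2 scale in the test of the difference itself (edgeR adjusted p = 0.0459, range 0.00869 to 0.883 over 11 alternatives). In KO mice Ereg was 1.22 CPM at the median with PEG and 0.603 CPM with NTZ, and in WT mice 2.35 and 4.62 CPM. Without the libraries high in squamous markers the difference was -1.39 (adjusted p = 0.883).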

How the results depend on the processing

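No paired analysis was possible because the groups share fewer than 2 animal numbers. Over the alternatives other than single libraries, 541 of 624 member values kept their direction and their side of the threshold, 21 lost the call, 6 gained it and 56 turned. The cause was not tested. Egf and Hbegf kept direction and call between the genotypes under each alternative run. The genotype values that turned between KO/PEG and WT/PEG were those of Ereg (0.0208 without the libraries numbered 110, 0.209 with the animal number as a covariate, 0.221 in animals numbered 100 or above, 1.51 with the length slope as a covariate, 0.0676 without libraries high in squamous markers), Tgfa (0.21 with the length slope as a covariate), Btc (0.741 with the length slope as a covariate), Egfr (0.565 with the length slope as a covariate) and Erbb3 (0.525 with the length slope as a covariate). Between KO/NTZ and WT/NTZ they were those of Tgfa (0.162 with the length slope as a covariate), Btc (0.0854 with the length slope as a covariate), Egfr (0.173 with the length slope as a covariate) and Erbb3 (0.453 with the length slope as a covariate). The rest concerned NTZ and did not pass in either direction. Between KO/NTZ and KO/PEG they were Egf (-0.0683 with limma-trend), Nrg1 (0.0111 with limma-trend, 0.0302 without the libraries numbered 110), Tgfa (-0.0122 without the libraries numbered 110, -0.0597 with the animal number as a covariate, -0.16 in animals numbered below 100, -0.00829 without libraries high in squamous markers) and Areg (-0.0539 without the libraries numbered 110, -0.0672 with the squamous sum as a covariate). Between WT/NTZ and WT/PEG they were Tgfa (-0.106 with the animal number as a covariate, -0.0586 in animals numbered 100 or above), Nrg1 (0.16 in animals numbered 100 or above), Areg (-0.0844 with the length slope as a covariate, -0.178 with the squamous sum as a covariate, -0.313 without libraries high in squamous markers), Btc (0.257 with the length slope as a covariate, 0.0601 with the squamous sum as a covariate, 0.0119 without libraries high in squamous markers), Egfr (0.125 with the length slope as a covariate), Ereg (-0.463 without libraries high in squamous markers), Hbegf (-0.0416 without libraries high in squamous markers) and Erbb2 (0.0609 without libraries high in squamous markers). In the interaction they were Tgfa (-0.0162 with RLE size factors, -0.0018 without a filter, -0.00502 with a minimum count of 50, -0.0154 with DESeq2, -0.0334 without the libraries numbered 110, -0.0481 with the length slope as a covariate, -0.0108 with the squamous sum as a covariate, -0.0648 without libraries high in squamous markers), Erbb3 (-0.00986 with RLE size factors, -0.00925 with DESeq2, -0.0198 without the libraries numbered 110, -0.0719 with the length slope as a covariate, -0.00162 with the squamous sum as a covariate, -0.163 without libraries high in squamous markers), Nrg1 (-0.00932 with RLE size factors, -0.0213 with DESeq2, -0.0193 without libraries high in squamous markers) and Areg (0.047 with limma-trend, 0.0859 with the length slope as a covariate, 0.111 with the squamous sum as a covariate, 0.504 without libraries high in squamous markers).

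The number of members that passed changed by over 1.5 times in these cases. KO/PEG versus WT/PEG went from 7 to 4 with the length slope as a covariate. KO/NTZ versus KO/PEG went from 1 to 0 with limma-trend, with only the 2 groups, with the animal number as a covariate and in animals numbered below 100. KO/NTZ versus WT/NTZ went from 8 to 3 with the length slope as a covariate. The interaction went from 1 to 0 without a filter, with a minimum count of 50, with limma-trend, with the pair of WT/PEG libraries of 1 animal number summed, without the libraries numbered 110, with the animal number as a covariate, with the squamous sum as a covariate and without libraries high in squamous markers, 2 with the length slope as a covariate. The number of all genes that passed changed likewise. KO/PEG versus WT/PEG went from 11123 to 4956 with the length slope as a covariate. KO/NTZ versus KO/PEG went from 829 to 1249 with DESeq2, 267 with only the 2 groups, 1288 with the animal number as a covariate, 256 in animals numbered below 100, 1653 with the length slope as a covariate, 490 without libraries high in squamous markers. WT/NTZ versus WT/PEG went from 154 to 101 with a minimum count of 50, 2 with limma-trend, 0 with only the 2 groups, 312 with the animal number as a covariate, 580 in animals numbered 100 or above, 73 with the length slope as a covariate, 7 with the squamous sum as a covariate, 21 without libraries high in squamous markers. KO/NTZ versus WT/NTZ went from 10792 to 3166 with the length slope as a covariate. The interaction gave 89 with a minimum count of 50, 274 with DESeq2, 53 with limma-trend, 1436 with the length slope as a covariate, 88 with the squamous sum as a covariate, 16 without libraries high in squamous markers. 

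Leaving out each of the 44 libraries in turn, 7 to 8 members and 10838 to 11332 genes passed in KO/PEG against WT/PEG, 0 to 2 members and 558 to 1809 genes passed in KO/NTZ against KO/PEG, 0 members and 57 to 249 genes passed in WT/NTZ against WT/PEG, 8 to 9 members and 10565 to 10920 genes passed in KO/NTZ against WT/NTZ and 0 to 1 members and 88 to 213 genes passed in the interaction. Over 1.5 times more genes passed in KO/NTZ against KO/PEG without the KO/PEG library of lowest length slope (1809), KO/PEG library 53 (1661) or KO/NTZ library 25 (1705). In WT/NTZ against WT/PEG the count was 249 without WT/NTZ library 93, and fewer than 100 passed without 8 other libraries, down to 57 without the WT/NTZ library highest in Nrg1, without which the interaction gave 88 genes. Low counts limit the levels of Ereg and Nrg1.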
